A study of Mus musculus and Homo sapiens with 4 samples.

Results

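LIN28A, LIN28B, the let-7 processing genes DICER1 and DIS3L2, and 6 genes known as let-7 targets or oncofetal genes (HMGA1, HMGA2, IGF2BP1, IGF2BP2, IGF2BP3 and ARID3B) were followed through a knock-down of Merm1/Wbscr22, now named BUD23, a methyltransferase of ribosomal RNA. The members were chosen by their gene symbols, and LIN28B came to attention through its high difference in these same arrays, so its values are given as a description. All 10 genes had a probe set with 1 gene symbol on the human array, among 19773 named genes, and 8 had one on the mouse array, among 18193. Mouse Hmga1 and Igf2bp2 were not analysed here.

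The study used 4 stably infected cell lines with 1 array each, so differences could not be checked in replicates, none has a p-value, and precision is limited by this number of arrays. A375M is a human melanoma line and LM8 a mouse osteosarcoma line. The knock-down lines carried the retroviral vector pSIREN-RetroQ with a short hairpin RNA against human (A375M) or mouse (LM8) Merm1/Wbscr22, and their control lines carried pSIREN-RetroQ-control. Cells were grown in serum-containing medium, DMEM for A375M and MEM for LM8. The labels do not say whether a line is a clone or a pool, or what the control vector expresses. Values are log2 RMA expression per probe set, a set of short probes near the end of a transcript, and every difference is the knock-down value minus the control value of the same line on that log2 scale.

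The let-7 family of microRNAs represses growth and fetal genes in differentiated cells. A let-7 hairpin precursor is cut to its mature form by Dicer. LIN28A and LIN28B are RNA-binding proteins that hold let-7 precursors back from maturing. LIN28A does so in part by recruiting terminal uridylyltransferases, after which the exonuclease DIS3L2 degrades the uridylated precursor. LIN28B is itself a let-7 target, and so are HMGA2, the IGF2BP genes, ARID3B and DICER1. LIN28B and several of these genes are expressed in embryonic tissue, mostly silent in adult tissue and re-expressed in some tumours, hence the term oncofetal.

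The mature let-7 sequences are shown because let-7 recognises its target transcripts through the seed, given in capitals (bases 2 to 8). The sequences are from RefSeq on the mouse build GRCm38.p6, are written 5′ to 3′, and belong to the species of LM8. Human microRNA sequences were not used here.
mmu-let-7a-5p: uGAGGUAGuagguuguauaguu
mmu-let-7b-5p: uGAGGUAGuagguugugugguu
mmu-let-7c-5p: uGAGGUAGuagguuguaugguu
mmu-let-7d-5p: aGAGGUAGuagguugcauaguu
mmu-let-7e-5p: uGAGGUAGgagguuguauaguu
mmu-let-7f-5p: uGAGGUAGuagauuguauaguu
mmu-let-7g-5p: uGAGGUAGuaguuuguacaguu
mmu-let-7i-5p: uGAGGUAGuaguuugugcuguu
mmu-miR-98-5p: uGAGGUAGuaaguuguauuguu
The seed GAGGUAG was shared by 11 differently named mature sequences among 1738 entries, 10 of them of the let-7 family. Outside the seed the family differed little. Set against let-7a, let-7c, let-7e and let-7f differed at 1 position each and let-7i at 4. The entry let-7k, not shown, also carried the seed, and the entry let-7j did not. The placed copies on GRCm38.p6 are let-7a at chr13:48538239-48538260 (minus strand), let-7b at chr15:85707325-85707346 (plus strand) and let-7c at chr16:77599672-77599693 (plus strand) and chr15:85706616-85706637 (plus strand). Those of the next sequences are let-7d at chr13:48536078-48536099 (minus strand), let-7e at chr17:17830366-17830387 (plus strand) and let-7f at chr13:48537889-48537910 (minus strand) and chrX:151912353-151912374 (plus strand). The last are let-7g at chr9:106178846-106178867 (plus strand), let-7i at chr10:122985698-122985719 (minus strand) and miR-98 at chrX:151913229-151913250 (plus strand). The let-7a sequence also lies in the hairpin Mirlet7a-2 at chr9:41536716-41536811 (plus strand), where it had no placed mature entry.

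LIN28 proteins are known to contact the motif GGAG in let-7 precursors, so the hairpins were searched for it on the transcribed strand between the 5′ and 3′ mature arms. It was present in 9 of 12 let-7 family hairpins with both arms located, against 44 of 633 other mouse hairpins (6.95%). Of the 9, Mirlet7a-2 had no placed 5′ arm, which was located by a match to let-7a, a step used for no other hairpin. The stretch between the arms was shorter in the other mouse hairpins (median 16 bases, against 30.5 in the family). The motif ended 3 or 4 bases before the 3′ arm in each of the 9. The 3 family hairpins without it were Mirlet7b, Mirlet7c-2 and Mir98. Examples of both kinds are shown, with the motif in capitals, because precursors such as these are what LIN28B binds.
Mirlet7a-1: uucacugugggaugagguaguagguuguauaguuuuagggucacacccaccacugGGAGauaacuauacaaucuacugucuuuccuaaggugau
Mirlet7g: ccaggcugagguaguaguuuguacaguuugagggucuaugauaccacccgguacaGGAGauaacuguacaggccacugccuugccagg
Mirlet7b: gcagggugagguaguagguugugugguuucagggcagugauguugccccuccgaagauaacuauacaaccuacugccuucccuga
Mir98: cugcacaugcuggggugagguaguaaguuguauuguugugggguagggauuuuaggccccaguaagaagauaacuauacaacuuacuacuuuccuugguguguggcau
On GRCm38.p6 these hairpins lie at chr13:48538179-48538272 on the minus strand (Mirlet7a-1), chr9:106178840-106178927 on the plus strand within Wdr82 (Mirlet7g), chr15:85707319-85707403 on the plus strand within Lncppara (Mirlet7b) and chrX:151913214-151913321 on the plus strand within Huwe1 (Mir98). A missing match says only that these letters are not in that stretch. Neither array measures mature microRNAs, so let-7 itself was not measured in this study.

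The target of the hairpin RNA was lower in both arrays labelled knock-down. BUD23 read 8.38 in the A375M knock-down array, against 10.70 in the control array, a difference of -2.32, while a second, dim human probe set differed by -0.12. Bud23 read 8.48 in the LM8 knock-down array, against 10.61 in the control array, a difference of -2.13. All 7 measured melanocyte markers of 8 exceeded the array median in A375M, and 3 lay above the 70th percentile in both arrays. SOX10 read 11.53 in the knock-down array and 11.62 in the control array. MLANA, PMEL, TYR and TYRP1 lay below the 70th percentile in both A375M arrays. All 5 measured osteoblast markers of 8 lay above the 70th percentile in both LM8 arrays. The same held for 3 of 7 measured osteoblast markers in A375M and for 4 of 6 fibroblast markers in LM8. These counts therefore do not set 1 cell type apart. Values identical in the knock-down and control array made up 45.4% of probe sets in A375M and 0.705% in LM8, a feature whose origin the sources used here do not give. This touches the members: 12 of their 33 human probe sets were identical in both arrays, against 0 of 24 in mouse, and 28 of the 33 had a value that at least 1 other probe set of the same array shared exactly.

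A gene was counted when its brightest probe set lay above the array median in at least 1 array of its line, which kept 9 of 10 members in A375M and 4 of 8 in LM8. A member that passes this filter through its higher array alone has to differ, and LIN28B passed it that way. In A375M 1 of the 9 kept members, LIN28B, was at least 1.5-fold different, where 0.748% of 13244 kept genes were. Its difference is what drew attention to it, so nothing is read from that count. In LM8 0 of the 4 kept members were at least 1.5-fold different, where 2.47% of 11646 kept genes were, so a count of 0 is close to that background. Of the 22 human probe sets above the median in at least 1 array, 7 were higher in the knock-down array, 11 lower and 4 identical. Over all kept A375M genes, each represented by its brightest probe set, 29.0% were higher, 40.3% lower and 30.8% identical. The units differ, and no direction of the members is read from these counts.

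**Figure D1:**
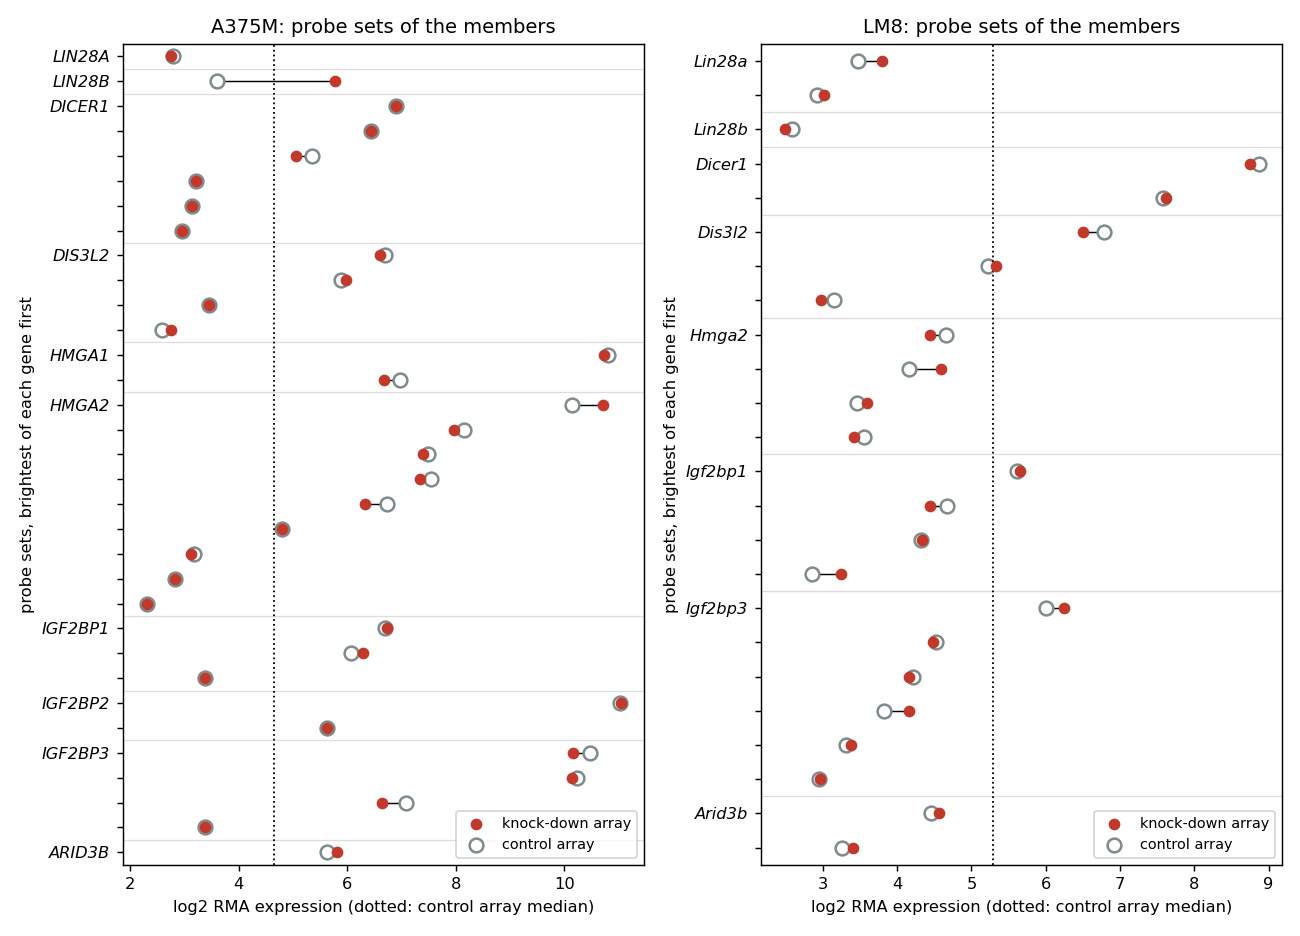
Level of every member probe set (log2 RMA expression, horizontal) in the knock-down array (filled red) and the control array (open grey), A375M at left and LM8 at right, with the control array median dotted. LIN28B in A375M is the pair that stands widest apart, at 5.77 in the knock-down array and 3.60 in the control array, while most other pairs overlap.

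LIN28B, the let-7 inhibitor, had 1 probe set on the human array. It read 5.77 in the A375M knock-down array and 3.60 in the control array. The knock-down value lay above the array median of 4.67 and the control value below its array median of 4.64. The difference was 2.16.

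The size of the LIN28B difference is imprecise, because its control value stands at the 33rd percentile of the array, where probe sets carry little signal over background. With 32 added to the linear values before the log2, which damps such low levels, the difference was 0.97. Its knock-down value was shared exactly by 85 probe sets including itself, whereas its control value occurred once. The probe set of LIN28B-AS1, a transcript named as antisense to LIN28B, read 4.75 in both A375M arrays.

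The 5 kept genes whose pair of A375M values lay nearest to that of LIN28B, by Euclidean distance over the 2 arrays, were AMPH, DCLK1, NR2F1, SILC1 and LOC100996756. AMPH, which encodes amphiphysin, read 5.09 in the knock-down array and 4.10 in the control array. DCLK1, a microtubule-associated kinase gene, read 4.94 in the knock-down array and 3.49 in the control array. NR2F1, a nuclear receptor gene, read 5.15 in the knock-down array and 4.20 in the control array. The nearest gene lay 0.84 log2 units away. Like LIN28B, all 5 passed the filter through the knock-down array alone, so they had to be higher there, and nothing is read from their direction or distance. Likeness over 2 arrays is a description of these arrays.

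**Figure D2:**
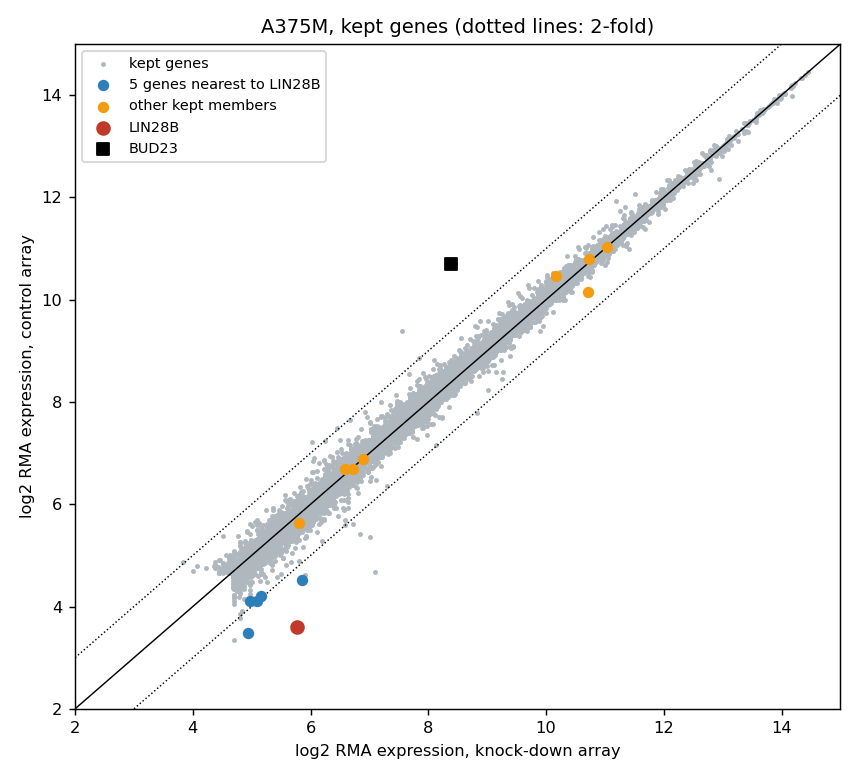
Kept genes of A375M by log2 RMA expression in the knock-down array (horizontal) and the control array (vertical), with equality as a solid line and 2-fold as dotted lines. LIN28B (red) lies below the lower dotted line with its 5 nearest genes (blue) between it and the main cloud, the other 8 kept members (orange) lie within the 2-fold lines, and BUD23 (black square) lies above the upper one.

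In LM8 the mouse Lin28b probe set read 2.48 in the knock-down array and 2.59 in the control array. Both values stand below the first percentile of their arrays, so the difference of -0.10 carries no information on direction. The difference between the lines was not tested, and the human and mouse probe sets are different designs.

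LIN28A, the paralog with the same precursor-binding domains, was dim in both lines. In A375M it read 2.75 in the knock-down array and 2.79 in the control array. In LM8 its probe sets read 3.80 and 3.01 in the knock-down array, against 3.47 and 2.93 in the control array, all below the array median. At such levels these arrays give little signal over background, and no direction is read from LIN28A.

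DICER1, the nuclease that cuts precursors to mature microRNAs, was kept in both lines. In A375M its brightest probe set read 6.89 in both arrays and the next 6.44 in both. Another, marked as shared between transcripts, read 5.05 in the knock-down array and 5.35 in the control array, a difference of -0.30. The 3 remaining human probe sets lay below the median and were identical in both arrays. In LM8 the bright Dicer1 probe sets read 8.75 and 7.62 in the knock-down array, against 8.87 and 7.59 in the control array, differences of -0.11 and 0.037 that lie at or within the typical spread between probe sets of 1 gene. That spread, a median SD of 0.12 in LM8 and 0.071 in A375M, leaves out the variation between cultures.

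DIS3L2, which degrades uridylated pre-let-7, had probe sets of both signs in both lines. In A375M the 2 above the median read 6.59 and 5.97 in the knock-down array, against 6.69 and 5.89 in the control array, differences of -0.10 and 0.086. In LM8 the brightest probe set read 6.51 in the knock-down array and 6.78 in the control array, a difference of -0.27 or 1.21-fold lower. The other mouse probe set above the median in 1 array read 5.33 in the knock-down array and 5.22 in the control array, a difference of 0.11. Averaged over all its probe sets, Dis3l2 differed by -0.12 in LM8.

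HMGA2, a chromatin protein with AT-hooks whose transcript is a long-known let-7 target, had 9 human probe sets that went in opposite directions. The brightest read 10.72 in the A375M knock-down array and 10.14 in the control array, a difference of 0.57 (1.48-fold), just short of the 1.5-fold line. The 4 next brightest were lower in the knock-down array. They read 7.96, 7.40, 7.34 and 6.33 there, against 8.15, 7.48, 7.54 and 6.72 in the control array, differences of -0.19, -0.077, -0.20 and -0.39.

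The remaining 4 HMGA2 probe sets differed by -0.059 or were identical. The brightest is marked as shared between transcripts. Without probe sets so marked HMGA2 differed by -0.19, and as the mean of its probe sets by -0.039, so the direction of HMGA2 in A375M depends on the probe set. Among 6265 human genes with at least 2 kept probe sets, 1.63% had a spread between them at least as large as the SD of 0.33 of HMGA2. In LM8 all 4 Hmga2 probe sets lay below the median, with differences from -0.21 to 0.44.

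HMGA1, the paralog of HMGA2, was lower in the A375M knock-down array on both of its probe sets. The bright one read 10.72 in the knock-down array and 10.80 in the control array, a difference of -0.079. The other read 6.67 in the knock-down array and 6.97 in the control array, a difference of -0.30. Both are marked as shared between transcripts.

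**Figure D3:**
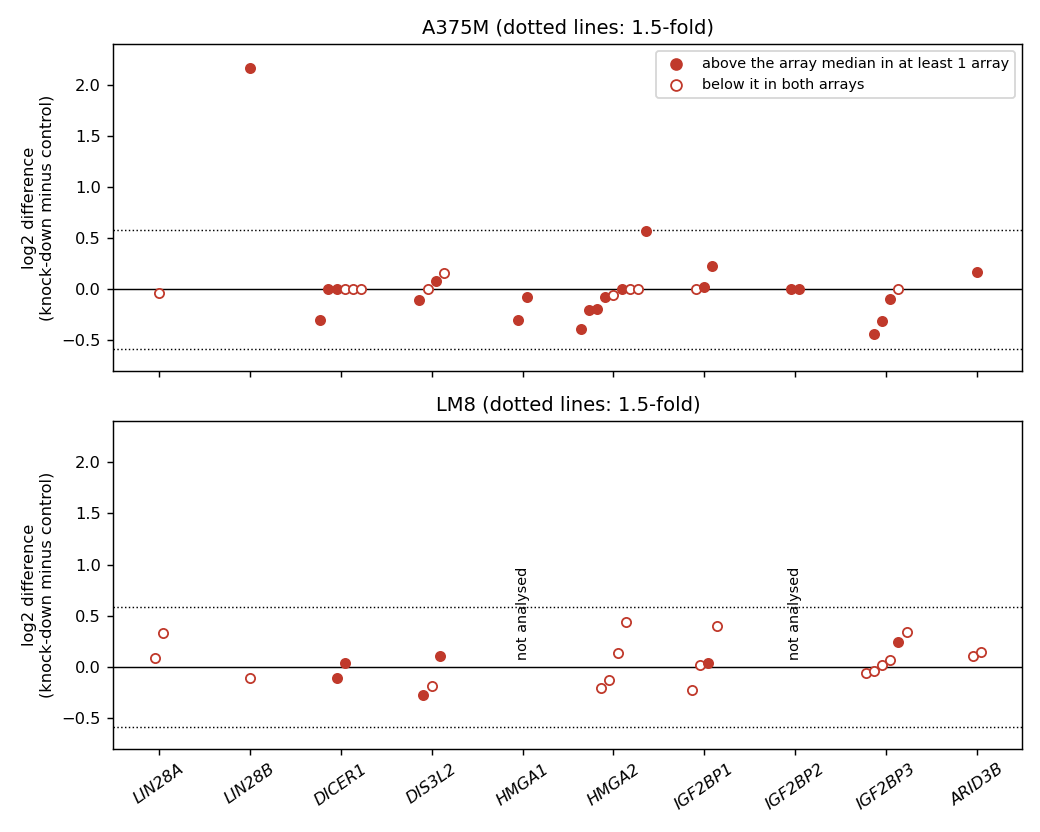
Log2 difference (knock-down minus control, vertical) of every member probe set, A375M above and LM8 below, filled where the probe set exceeds the array median in at least 1 array and open where it does not, with 1.5-fold as dotted lines. Apart from LIN28B at 2.16 every human point lies between -0.43 and 0.57, and HMGA2 has points on both sides of 0.

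The IGF2BP genes encode RNA-binding proteins that stabilise and localise transcripts, IGF2 mRNA among them. IGF2BP3 was lower in the A375M knock-down array on all 3 probe sets above the median. They read 10.16, 10.15 and 6.64 in the knock-down array, against 10.47, 10.24 and 7.07 in the control array. The differences were -0.31, -0.090 and -0.43, the first 1.24-fold lower. All 3 are marked as shared between transcripts. The 1 human probe set without that mark read 3.38 in both arrays, below the median, so without the marked probe sets IGF2BP3 was not kept. In LM8 the brightest Igf2bp3 probe set differed the other way, at 6.25 in the knock-down array and 6.01 in the control array, and the other 5 lay below the median with differences from -0.056 to 0.34.

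IGF2BP1 read 6.73 and 6.29 on its brighter probe sets in the A375M knock-down array, against 6.70 and 6.06 in the control array, differences of 0.028 and 0.23. In LM8 its brightest probe set read 5.66 in the knock-down array and 5.62 in the control array, and the other 3 lay below the median. Without probe sets marked as shared, mouse Igf2bp1 was not kept and differed by -0.23. IGF2BP2 read 11.04 in the A375M knock-down array and 11.03 in the control array, and 5.62 in both arrays on its second probe set.

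ARID3B, a DNA-binding protein gene and let-7 target, read 5.80 in the A375M knock-down array and 5.63 in the control array, a difference of 0.17. In LM8 its probe sets read 4.56 and 3.40 in the knock-down array, against 4.45 and 3.26 in the control array, below the median in both arrays.

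Other genes of let-7 processing were examined as a list of 19 genes that holds the Microprocessor subunits, the nuclear exporter, Dicer partners, Argonautes, terminal uridylyltransferases and binding proteins of let-7 precursors. In A375M 18 were kept, of which 0 were at least 1.5-fold different. In the A375M knock-down array 5 were higher, 9 lower and 4 identical. Over all kept genes 29.0% were higher, 40.3% lower and 30.8% identical. The median of the list was -0.0099, against 0 over all kept genes. AGO2 and AGO1, Argonautes that carry mature microRNAs, had the largest differences at -0.24 and -0.23. TUT4 and TUT7, the uridylyltransferases that act with LIN28A, read 7.36 and 7.21 in the knock-down array, against 7.45 and 7.30 in the control array.

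In LM8 18 genes of the processing list were kept and 0 were at least 1.5-fold different. There 13 were higher and 5 lower, where 53.8% of all kept genes were higher and 46.0% lower. The median of the list was 0.083, against 0.015 over all kept genes. Dgcr8, the partner of Drosha in the Microprocessor, read 9.27 in the knock-down array and 8.88 in the control array, a difference of 0.39. Ago3 read 8.25 in the knock-down array and 7.92 in the control array, a difference of 0.33. Averaging all probe sets per gene, in place of the brightest, gave an LM8 median of 0.00063.

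The let-7 target list held 29 genes, the members among them. Leaving the members out, 15 targets were kept in each line, with a median difference of 0 in A375M and -0.039 in LM8. With the members, 23 were kept in A375M, 9 higher, 9 lower and 5 identical, and LIN28B was the 1 gene at least 1.5-fold different. In LM8 18 were kept, 6 higher and 12 lower, with a median of -0.034, and 0 were at least 1.5-fold different. Over all kept genes 29.0% were higher and 40.3% lower in A375M, and 53.8% higher and 46.0% lower in LM8. Mycn, a transcription factor gene, had the largest difference among the kept genes of the mouse list, at 12.31 in the knock-down array and 12.70 in the control array. TGFBR1, a TGF-beta receptor gene named after its values were seen, read 7.70 in the A375M knock-down array and 8.14 in the control array.

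**Figure D4:**
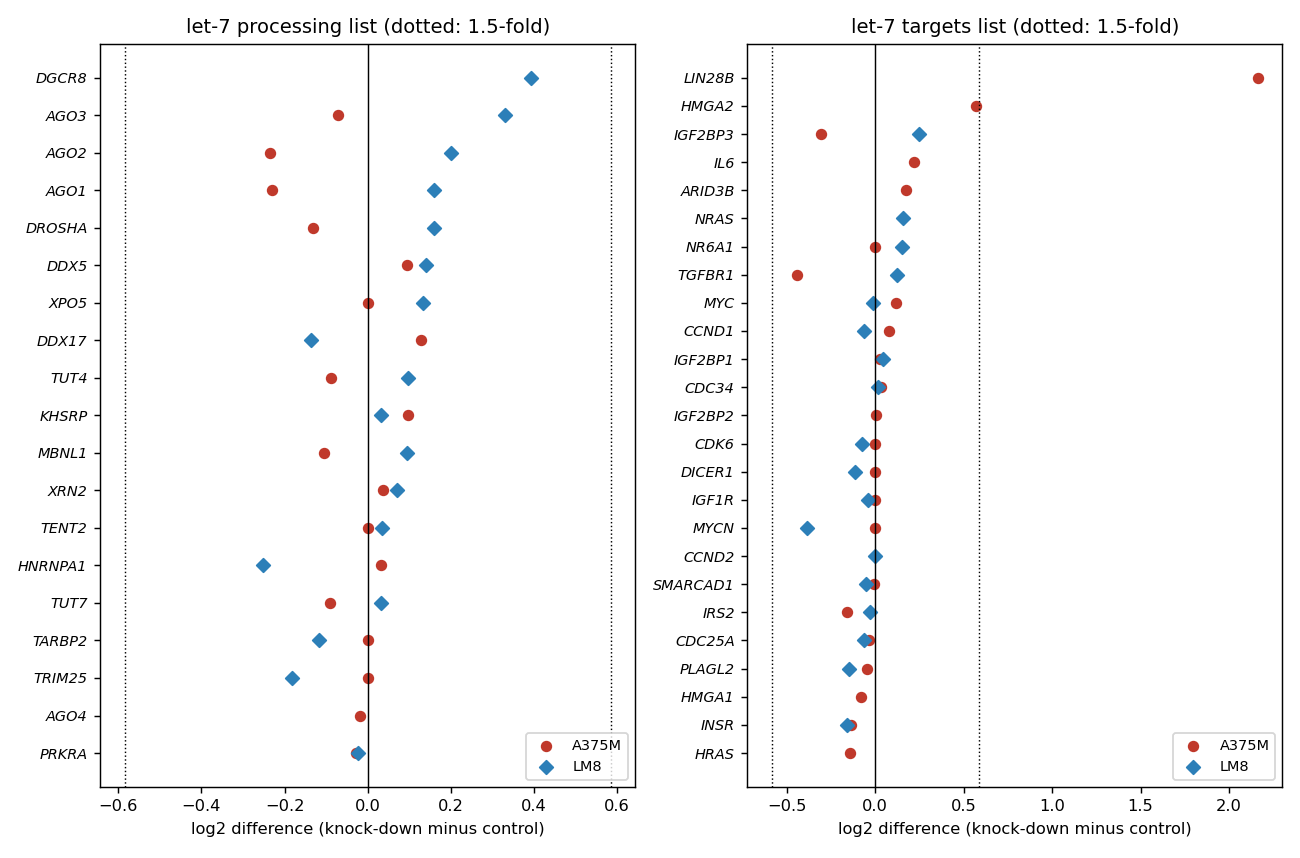
Log2 difference (knock-down minus control, horizontal) of the kept genes of the let-7 processing list (left) and the let-7 target list (right), with A375M as circles, LM8 as diamonds and 1.5-fold as dotted lines. All points lie between the 1.5-fold lines except LIN28B in A375M, and the points of both lists fall on both sides of 0.

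Transcripts that carry let-7 hairpins were examined because mature let-7 was not measured. They are genes that contain a let-7 locus on the mouse build, with the human gene of the same symbol, and human probe sets named for let-7. WDR82, which contains let-7g, read 10.37 in the A375M knock-down array and 10.42 in the control array, and Wdr82 read 11.20 in the LM8 knock-down array and 11.15 in the control array. HUWE1, which contains let-7f-2 and miR-98, read 13.40 in the A375M knock-down array and 13.46 in the control array on its brightest probe set. A second bright HUWE1 probe set read 9.55 in the knock-down array and 9.83 in the control array, a difference of -0.28, and both are marked as shared between transcripts. In LM8 the brightest Huwe1 probe set read 10.77 in the knock-down array and 10.69 in the control array, and the 5 mouse probe sets differed by -0.54 to 0.33. Lncppara, which contains let-7b and let-7c-2 on the mouse build, read 6.69 in the LM8 knock-down array and 6.58 in the control array. MIR100HG, which contains let-7a-2, read 9.53 in the A375M knock-down array and 9.60 in the control array. A second, dim MIR100HG probe set read 2.59 in the knock-down array and 2.28 in the control array. Spaca6, which contains let-7e, read 4.80 in the LM8 knock-down array and 4.76 in the control array on its brightest probe set. Its other mouse probe sets differed by -0.12 and -0.14. The brightest human SPACA6 probe set read 4.26 in both A375M arrays. Both probe sets of MIRLET7BHG, the host of let-7b, were identical in the A375M arrays at 5.35 and 5.42, as was the probe set named MIRLET7D at 5.74. Mature let-7 can be set after transcription, so these values do not give its level.

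No kept gene of the oncofetal and pluripotency lists reached 1.5-fold in either line. In A375M 6 of 9 measured oncofetal genes were kept. PLAC1, a placental gene, read 6.83 in the knock-down array and 6.48 in the control array. GPC3, the glypican known from fetal liver and liver tumours, read 4.78 in the knock-down array and 4.45 in the control array, near the median of the arrays. It passed the filter through the knock-down array alone, so it had to be higher there, and nothing is read from its direction. In LM8 3 of 9 were kept, and Plac1 read 5.52 in the knock-down array and 5.94 in the control array. Tpbg was higher, at 10.07 in the LM8 knock-down array and 9.87 in the control array. Tdgf1, a co-receptor gene of Nodal signalling on both lists, was not kept in LM8, at 4.11 in the knock-down array and 5.04 in the control array, both below the median, a difference of -0.93. Of the pluripotency list, ZFP42 read 8.73 in the A375M knock-down array and 8.78 in the control array. SOX2 read 6.14 in the A375M knock-down array and 6.06 in the control array. In LM8 Klf4 read 10.56 in the knock-down array and 11.04 in the control array. Utf1 was higher, at 7.36 in the LM8 knock-down array and 7.22 in the control array.

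LIN28B is also expressed in germ cells, and 1 gene of the germ cell marker list moved with it in A375M. TEX15 read 7.002 in the knock-down array and 5.35 in the control array, a difference of 1.65. Of the 6 measured germ cell markers of 8, 2 were kept, the second being NANOS3 at 5.16 in both arrays, and the defining markers DDX4, DAZL, MAEL and SYCP3 lay below the array median. The summed linear level of the list was 191 in the knock-down array and 103 in the control array. Without TEX15 it was 62.4 in the knock-down array and 61.9 in the control array, so nearly all of the difference in the sum was that of TEX15. Leukocyte markers, of which 3 of 6 measured were kept, summed to 166 in the knock-down array and 171 in the control array. The part of these genes in the LIN28B difference was not tested. In LM8 the marker lists also held genes at least 1.5-fold different. Col3a1, of a list of 6 fibroblast markers, read 8.96 in the knock-down array and 6.59 in the control array, a difference of 2.37. S100b, of the melanocyte list, read 9.01 in the knock-down array and 8.28 in the control array, a difference of 0.73.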

How the data were processed

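Biotinylated cRNA from total RNA was hybridised to Affymetrix arrays, per the labels' protocols. The deposited values are log2 expression levels of probe sets, which the authors computed by RMA (no version stated) per the submitters' processing notes. RMA equalises the distributions of arrays, so a global shift would not be seen. The sources used here do not say whether arrays were processed together.

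Gene names came from the supplied platform annotation. Among probe sets with 1 symbol, the one with the higher mean over both arrays stood for its gene. Genes were kept if it exceeded the 50th percentile of an array, control probe sets left out, in either array. Differences were counted at 1.5-fold, with no test. The members, lists and thresholds were chosen with earlier results of these data known. Named genes were the members, BUD23 and the 5 genes nearest to LIN28B. List genes at least 1.5-fold different were named, and otherwise the 2 largest differences of a list. Marker lists gave only genes at least 1.5-fold different. Other genes were named outside these rules, after their values were seen. They were A375M melanocyte markers, TUT4, TUT7, TGFBR1, Tdgf1, LIN28B-AS1, germ cell markers other than TEX15 and the let-7 host genes. Alternatives covered centring, quantile normalization, a loess curve (span 0.4), the mean of probe sets, exclusion of names ending in _x_at or _s_at (marked as shared between transcripts), 32 added before the log2, filters, and 2-fold and 3-fold. Exclusion of identical probe sets was added after seeing the data. Scripts (Python 3.11.15, pandas 2.3.3, statsmodels 0.14.6) were tested on simulated data.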

Additional observations from a re-analysis of the deposited data

Results flagged for a closer look

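Some members and related genes differed in opposite directions in A375M and LM8. With 1 array per group, that difference between the lines was not tested. As the A375M difference minus the LM8 difference it was 2.27 for LIN28B (2.16 and -0.10, the mouse probe set near the bottom of its array). For HMGA2 it was 0.78 (0.57 and -0.21, with probe sets of both signs in both lines and the mouse ones below the median). It was -0.37 for LIN28A (-0.038 and 0.33, dim in both) and -0.55 for IGF2BP3 (-0.31 and 0.24). Among other named genes it was -0.39 for AGO1, -0.44 for AGO2, -0.40 for AGO3, 0.77 for PLAC1 and -0.21 for TPBG, an oncofetal glycoprotein gene. The median of the let-7 processing list differed between the lines by -0.093, with -0.0099 in A375M and 0.083 in LM8.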

How the results depend on the processing

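The LIN28B difference in A375M was between 2.13 and 2.16 under the normalization and probe set alternatives and 0.97 with 32 added to the linear value. With the filter at the 70th percentile LIN28B was not kept, and the count of members at least 1.5-fold different in A375M was 0. That count was 2 after repeated quantile normalization, where HMGA2 differed by 0.60. The median of the let-7 processing list in A375M was 0.038 after repeated quantile normalization, which moved the median of all kept genes to 0.019. HMGA2 also changed direction with the choice of probe sets, as given above. So did DIS3L2 in A375M, at 0.036 as the mean of its probe sets, and Igf2bp1 in LM8, at -0.23 without shared probe sets, where A375M IGF2BP3 was 0 and neither was kept. Hmga2 in LM8, below the median, changed from -0.21 on its brightest probe set to 0.059 as the mean of its probe sets. With arrays centred on their medians, IGF2BP1 and IGF2BP2 in A375M, both near 0, were -0.0026 and -0.023. DICER1 in A375M, 0 as reported, was -0.030 with that centring and 0.034 after repeated quantile normalization. It differed by -0.30 without probe sets of identical value, an alternative added after seeing the data. The count in LM8 was 0 under all its alternatives. A difference or median that did not change sign was judged against the median SD between probe sets of 1 gene. A change of sign was taken as a reversal whatever its size. Counts were judged by whether they changed by more than 1.5-fold. No paired analysis was possible because each group held 1 array and no result comes from a test.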
